A study of Homo sapiens with 9 samples.

Results

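The 10 genes described here read the output of the ERK pathway and its negative feedback. They are established targets of ERK signaling, picked out by symbol, and comprised the phosphatase genes Dusp4, Dusp5 and Dusp6, the inhibitor genes Spry2, Spry4 and Spred1, the transcription factor genes Etv4, Etv5 and Fosl1, and Phlda1. All 10 were present among the 17369 genes of the table, and all 10 passed the filter on low values described below.

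In this pathway, growth factor receptors or mutant RAF proteins activate MEK, which phosphorylates ERK, and ERK in turn switches on immediate early genes and then delayed targets. Several of the delayed targets act back on the pathway: DUSP proteins remove phosphate from ERK and other MAP kinases, while Sprouty and SPRED proteins restrain signaling at the level of RAS and RAF. Because a mutant BRAF drives ERK constantly, BRAF-mutant thyroid tumors usually carry high levels of these transcripts, and the levels are widely used as a readout of pathway output.

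All tumors came from TBP3743, a mouse line of anaplastic thyroid cancer whose Braf mutation and Trp53 loss were both driven in thyroid cells only, in B6129SF1 animals, so every group shared these changes. Orthotopic tumors were grown from 100000 cells in the thyroid of female mice aged 6 weeks and collected on day 14. The original/B6129SF1 group held 3 tumors of original cells in B6129SF1 hosts, the adapted/B6129SF1 group 3 tumors of adapted cells in the same strain, and the adapted/B6 group 3 tumors of adapted cells in C57BL/6 hosts. Adapted cells had been through 3 rounds of growth in C57BL/6 mice, the later rounds started from cells recovered from tumors, and so represent one selected derivative of the line. Original cells in C57BL/6 mice were not analysed here. The adapted/B6129SF1 and original/B6129SF1 groups thus differ in cells, the 2 adapted groups differ in host, and in adapted/B6 against original/B6129SF1 cells and host cannot be told apart.

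Whole tumors were sequenced, so each value sums tumor and host cells, and for every gene fewer cells of a type and less RNA per cell cannot be told apart. Levels are given as FPKM, fragments scaled for transcript length and for the tumor's library, so that levels of different genes can be set side by side. Counts were not used, and the depth is unknown apart from an approximate relative depth of 0.959 to 1.34 times that of original/B6129SF1 replicate 1. Of 10 thyroid marker genes, 3 had a mean of at least 1 FPKM. Nkx2-1 was between 23.5 and 44.5 FPKM and Hhex between 14.7 and 34.9, whereas Foxe1 was at 0 in 6 tumors and Tshr reached at most 0.0703 FPKM. Tg, the thyroglobulin gene, ranged from 0.0153 to 31.0 FPKM over the tumors. The summed level of the 10 thyroid genes was highest in original/B6129SF1 replicate 2, at 109 FPKM. It was 59.5 and 70.1 in replicates 1 and 3 of that group and between 39.5 and 84.7 in the adapted tumors. The summed level of 13 skeletal muscle genes reached 36028 FPKM in replicate 3 of adapted/B6129SF1 and 5928 in replicate 1 of adapted/B6, and did not exceed 724 in the remaining tumors.

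Group means were compared with limma on log2(FPKM + 1) in one model of the 9 tumors, and genes below 1 FPKM in 7 or more tumors were left out, which kept 10263. A gene passed where its Benjamini-Hochberg adjusted p was under 0.05, and was called a differentially expressed gene (DEG) where its log2 fold change was also above 1 in absolute size. The added 1 FPKM understates the change of genes with low levels, and fold changes are differences of mean log values, so they need not equal the ratio of the mean levels. The labels call the replicates biological. The p-values set each difference of group means against the spread between tumors, pooled over the 3 groups and moderated across genes.

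For most of the readout no difference beyond the spread between tumors was detected. In adapted/B6129SF1 against original/B6129SF1, 0 of the 10 genes passed by limma, where 8.28% of all genes passed. An unadjusted limma p under 0.05 was found for 2 of the 10, and for 2721 of all 10263 genes. In adapted/B6 against original/B6129SF1, Spry4 alone passed, on the lower side, where 2.77% of all genes passed lower and 6.75% in either direction. Here 4 of the 10, and 2502 of all genes, had an unadjusted p under 0.05. Between the 2 adapted groups 0 of the 10 passed, where 0.0292% of all genes passed. An unadjusted p under 0.05 was found there for 2 of the 10 and 643 of all genes. With both adapted groups pooled against original/B6129SF1, Fosl1 alone passed, also lower, where 5.84% of all genes passed lower and 11.9% in either direction. For this comparison 4 of the 10, and 3014 of all genes, had an unadjusted p under 0.05. The median log2 fold change of the 10 genes was -0.24 in adapted/B6129SF1 and -0.18 in adapted/B6 against original/B6129SF1, with -0.03 over all genes in each, and 0.07 between the adapted groups, with 0.01 over all genes. All comparisons with original/B6129SF1 share its 3 tumors. DEGs made up 3.22% of all genes in adapted/B6129SF1 and 3.09% in adapted/B6 against original/B6129SF1, 0.0292% between the adapted groups and 3.39% for both together. Groups that did not overlap were seen for 1 of the 10 genes in adapted/B6129SF1 and 4 in adapted/B6 against original/B6129SF1, 2 between the adapted groups and 0 with both together, where 29.6%, 32.8%, 11.7% and 19.2% of all genes had none.

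**Figure D1:**
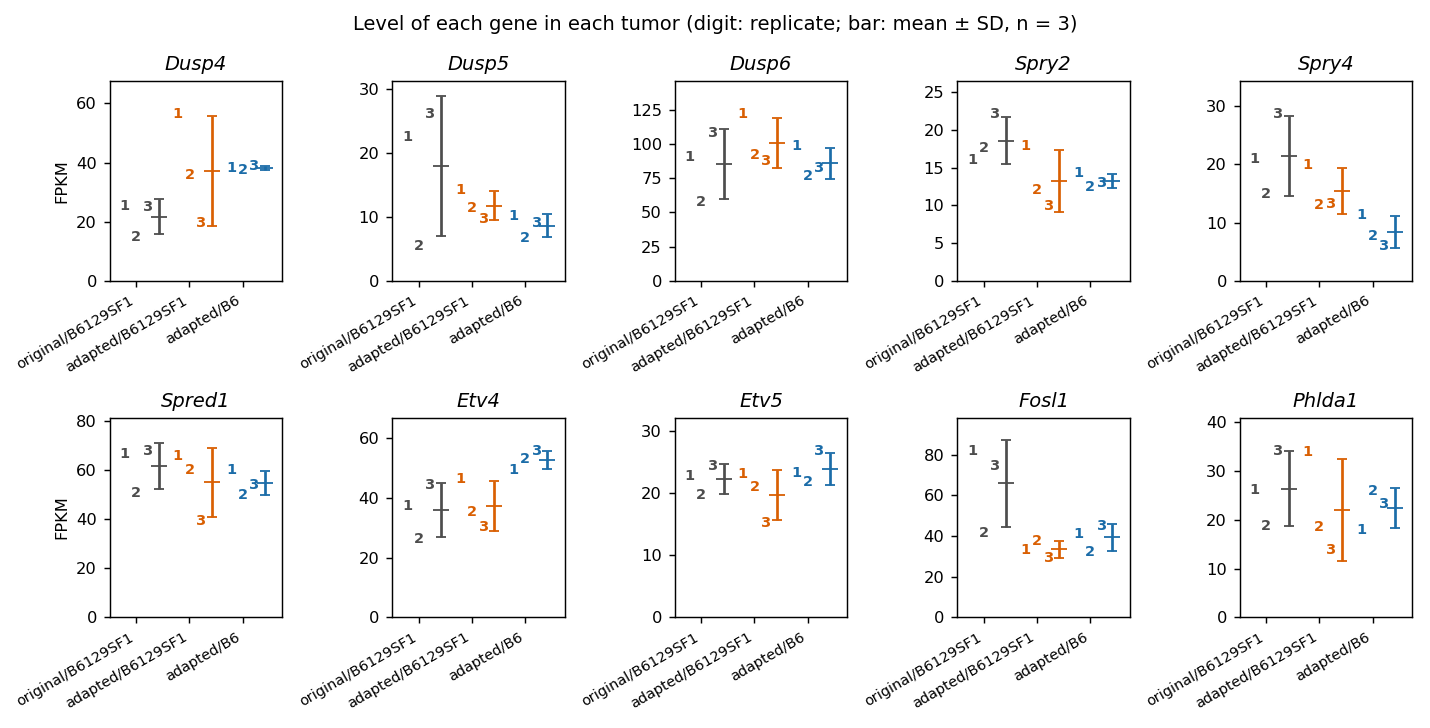
FPKM of each of the 10 genes in each tumor, with digits for the replicate number and bars for the group mean ± SD (n = 3 tumors). Spry4 in adapted/B6 lies between 5.92 and 11.4 FPKM, below every tumor of the other groups, and replicate 2 of original/B6129SF1 is the lowest tumor of its group for 9 of the 10 genes.

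Of the inhibitors of RAS and RAF signaling, Spry4 was lowest in the adapted/B6 tumors, Spry2 was lower on average in both adapted groups without passing, and Spred1 lay within the spread of all groups. Spry4 encodes a Sprouty protein that is induced by ERK and dampens receptor signaling upstream of it. Its level was 20.8, 15.0 and 28.6 FPKM in the original/B6129SF1 tumors, 20.0, 12.9 and 13.3 in adapted/B6129SF1, and 11.4, 7.70 and 5.92 in adapted/B6. All 3 adapted/B6 tumors were thus below all 6 others, whereas adapted/B6129SF1 and original/B6129SF1 overlapped. The means were 21.5 ± 6.83, 15.4 ± 3.97 and 8.33 ± 2.78 FPKM (SD, n = 3), and the adapted/B6 mean was 0.388 times the original/B6129SF1 mean. In adapted/B6, Spry4 fell by 1.26 (log2) against original/B6129SF1 (SE 0.28, 95% interval -1.91 to -0.62, adjusted p = 0.0339 by limma), which made it the only DEG among the 10 genes in any comparison. In adapted/B6129SF1 against original/B6129SF1 the Spry4 difference was -0.44 (SE 0.28, adjusted p = 0.354 by limma), and in adapted/B6 against adapted/B6129SF1 it was -0.83 (SE 0.28, adjusted p = 0.705 by limma). The direct comparison of hosts, with the same cells, therefore did not pass, although its groups did not overlap. With both adapted groups pooled against original/B6129SF1, Spry4 differed by -0.85 (SE 0.24, adjusted p = 0.0554 by limma) and did not pass. That adjusted p ran from 0.0409 to 0.194 when each tumor was left out in turn.

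The Spry4 call in adapted/B6 against original/B6129SF1 rested on few tumors. Its adjusted p rose to 0.0983 without original/B6129SF1 replicate 1, 0.108 without original/B6129SF1 replicate 3, 0.0893 without adapted/B6 replicate 2 and 0.128 without adapted/B6 replicate 3 (limma), and to 0.0588 with no filter on low values. The log2 fold change stayed between -1.49 and -1.04 when each tumor was left out in turn.

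Spry2, a second Sprouty gene, was at 16.0, 17.7 and 22.1 FPKM in original/B6129SF1, 17.9, 12.1 and 9.88 in adapted/B6129SF1, and 14.3, 12.4 and 13.0 in adapted/B6. The adapted/B6 tumors were all below the original/B6129SF1 tumors, and adapted/B6129SF1 replicate 1 fell among the latter. The log2 difference from original/B6129SF1 was -0.48 in adapted/B6129SF1 and -0.45 in adapted/B6 (SE 0.20 for both, adjusted p = 0.164 and 0.206 by limma). Without adapted/B6129SF1 replicate 1, Spry2 passed in adapted/B6129SF1 at -0.71 (adjusted p = 0.0384 by limma). Spred1, whose product binds RAS and recruits the RAS inhibitor neurofibromin, spanned 50.7 to 67.6 FPKM in original/B6129SF1, 39.2 to 65.8 in adapted/B6129SF1 and 49.9 to 59.7 in adapted/B6. Its log2 difference from original/B6129SF1 was -0.18 (95% interval -0.63 to 0.26) in adapted/B6129SF1 and -0.16 (-0.61 to 0.28) in adapted/B6. Changes as large as the ends of these intervals were not resolved. Leaving out the muscle-rich adapted/B6129SF1 replicate 3, the lowest tumor for Spred1, moved the adapted/B6129SF1 difference to 0.04.

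The 3 phosphatase genes differed from one another. Dusp4 had higher means in both adapted groups, Dusp5 had lower means, and Dusp6 showed no clear difference, and 0 of the 3 passed in any of the 4 comparisons. Dusp4, which encodes a nuclear MAP kinase phosphatase, was at 25.2, 14.8 and 25.1 FPKM in original/B6129SF1, 56.3, 35.8 and 19.4 in adapted/B6129SF1, and 38.1, 37.6 and 39.0 in adapted/B6. The adapted/B6 tumors were close to one another and all above original/B6129SF1, while adapted/B6129SF1 spread across both. The log2 difference from original/B6129SF1 was 0.66 (SE 0.34, adjusted p = 0.254 by limma) in adapted/B6129SF1 and 0.83 (SE 0.34, adjusted p = 0.183) in adapted/B6, and 0.75 for both groups together (SE 0.30, adjusted p = 0.135). Single tumors moved the adapted/B6129SF1 value, to 0.31 without its replicate 1, 0.42 without original/B6129SF1 replicate 2 and 1.05 without the muscle-rich adapted/B6129SF1 replicate 3. Without that last tumor Dusp4 passed for both groups together at 0.94 (adjusted p = 0.0256 by limma).

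Dusp5 encodes a nuclear phosphatase with a strong preference for ERK. It was at 22.4, 5.39 and 26.0 FPKM in original/B6129SF1, 14.1, 11.4 and 9.65 in adapted/B6129SF1, and 10.1, 6.66 and 9.09 in adapted/B6. Within original/B6129SF1 the tumors themselves differed widely, with replicate 2 below all 6 adapted tumors and the other two above them. Dusp5 therefore had a log2 difference of -0.34 in adapted/B6129SF1 and -0.74 in adapted/B6 (SE 0.48, adjusted p = 0.680 and 0.382 by limma). Without original/B6129SF1 replicate 2 these became -0.998 and -1.40 (adjusted p = 0.0364 and 0.0148 by limma), and -1.2002 for both groups together (adjusted p = 0.0121). Which value describes the original cells depends on that one tumor.

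Dusp6, the cytoplasmic ERK phosphatase and one of the most used readouts of ERK activity, was the most abundant of the 10 transcripts in every tumor. Its level was 90.4, 57.9 and 108 FPKM in original/B6129SF1, 122, 92.2 and 87.8 in adapted/B6129SF1, and 98.4, 76.8 and 82.1 in adapted/B6. All 3 groups overlapped. The log2 difference from original/B6129SF1 was 0.26 in adapted/B6129SF1 (95% interval -0.25 to 0.78, adjusted p = 0.486 by limma) and 0.04 in adapted/B6 (-0.47 to 0.56, adjusted p = 0.931). The intervals leave room for a rise to 0.78 or a decrease to -0.47 on the log2 scale.

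**Figure D2:**
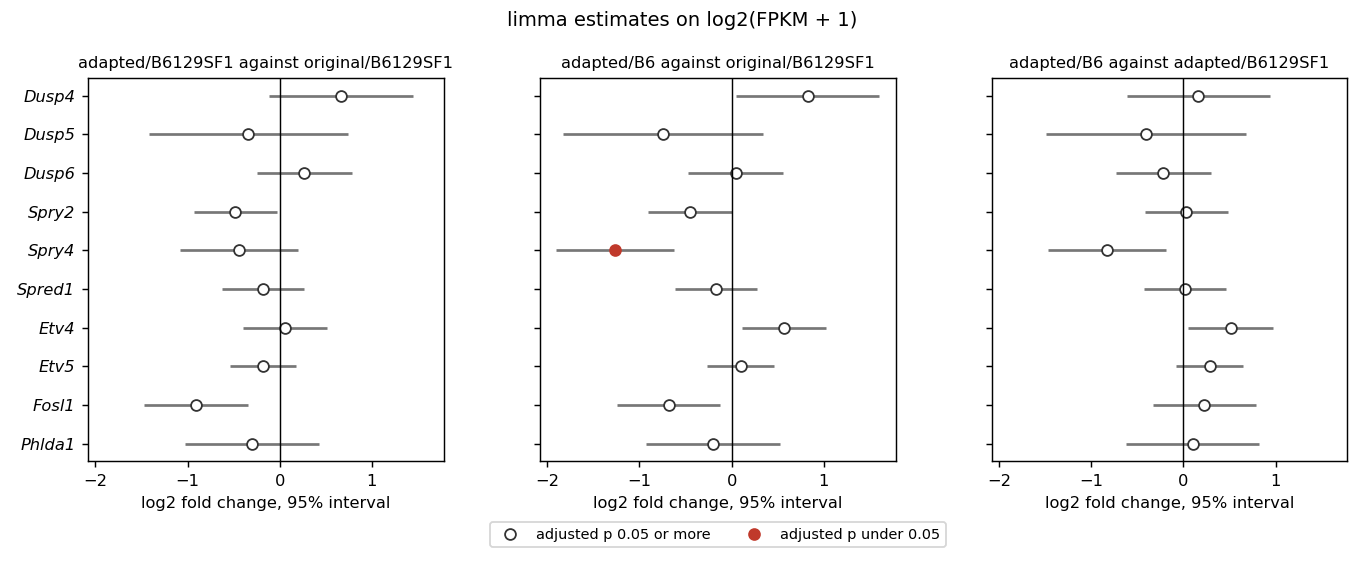
limma log2 fold changes on log2(FPKM + 1) with 95% intervals for the 10 genes in 3 comparisons of groups of 3 tumors, filled where the adjusted p is under 0.05. Spry4 in adapted/B6 against original/B6129SF1, at -1.26, is the single filled point.

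Among the transcription factor genes, Fosl1 was lower in the adapted tumors, Etv4 was higher in adapted/B6 without passing, and Etv5 was nearly level. Fosl1 encodes the AP-1 factor FRA1, which ERK both induces and stabilizes. Its level was 81.7, 41.4 and 74.4 FPKM in original/B6129SF1, 33.3, 37.8 and 29.1 in adapted/B6129SF1, and 41.0, 32.0 and 45.05 in adapted/B6. All adapted/B6129SF1 tumors were below all original/B6129SF1 tumors, but adapted/B6 replicate 3 exceeded original/B6129SF1 replicate 2. Means were 65.8 ± 21.5 FPKM in original/B6129SF1 (SD, n = 3) and 36.4 ± 6.00 over the adapted tumors (SD, n = 6). Over the 6 adapted tumors, Fosl1 fell by 0.80 (log2) (SE 0.21, adjusted p = 0.0454 by limma), short of the fold change that defines a DEG. Separately, the difference was -0.91 in adapted/B6129SF1 (SE 0.25, adjusted p = 0.0581 by limma) and -0.68 in adapted/B6 (SE 0.25, adjusted p = 0.133). Between the adapted groups the Fosl1 difference was 0.23 (SE 0.25, adjusted p = 0.918 by limma).

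The pooled Fosl1 call lay at the threshold. With any single tumor other than original/B6129SF1 replicate 2 left out, its adjusted p was between 0.0599 and 0.165 by limma, and it was 0.0717 with no filter on low values. Without original/B6129SF1 replicate 2, the adapted tumors fell by 1.09 (adjusted p = 0.00954 by limma), and Fosl1 then also passed in adapted/B6129SF1 at -1.21 (adjusted p = 0.0132) and in adapted/B6 at -0.98 (adjusted p = 0.0228).

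Etv4 and Etv5 encode related ETS factors of the PEA3 group that are transcribed in response to ERK. Etv4 was at 37.3, 26.3 and 44.1 FPKM in original/B6129SF1, 46.3, 35.1 and 30.04 in adapted/B6129SF1, and 49.3, 52.9 and 55.6 in adapted/B6. The adapted/B6 tumors were above the other 6, which overlapped with one another. The log2 difference of Etv4 was 0.57 in adapted/B6 against original/B6129SF1 (SE 0.20, adjusted p = 0.130 by limma), 0.51 in adapted/B6 against adapted/B6129SF1 (adjusted p = 0.777) and 0.06 in adapted/B6129SF1 against original/B6129SF1 (adjusted p = 0.888). Etv5 spanned 15.2 to 26.8 FPKM over the 9 tumors, and its log2 difference from original/B6129SF1 was -0.18 in adapted/B6129SF1 (95% interval -0.54 to 0.18) and 0.10 in adapted/B6 (-0.26 to 0.46).

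Phlda1 encodes a pleckstrin homology-like protein induced by ERK. It was at 26.2, 18.8 and 34.1 FPKM in original/B6129SF1, 33.8, 18.5 and 13.8 in adapted/B6129SF1, and 18.0, 25.9 and 23.3 in adapted/B6. The groups overlapped throughout. The log2 difference from original/B6129SF1 was -0.30 in adapted/B6129SF1 (95% interval -1.02 to 0.42) and -0.20 in adapted/B6 (-0.93 to 0.52).

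Summed levels of some marker lists differed between the groups, while most of their single genes did not pass. Krt8 and Krt18, which encode simple epithelial keratins, made up most of the summed level of 9 epithelial genes. That sum was 947, 578 and 970 FPKM in the original/B6129SF1 tumors, between 265 and 549 in adapted/B6129SF1 and between 371 and 425 in adapted/B6, with Epcam at most 2.49 and Cdh1 at most 4.48 FPKM in any tumor. Of 6 epithelial genes tested, 1 passed lower in each adapted group against original/B6129SF1, beside 3.92% and 2.77% of all genes. In adapted/B6, 3 of the 6 had a log2 difference above 0, and the median was -0.07. Fosl1 and the epithelial sum were both high in original/B6129SF1 replicates 1 and 3. The sum of 8 T cell genes ran from 4.69 to 7.11 FPKM in original/B6129SF1, from 7.98 to 37.7 in adapted/B6129SF1 and from 24.9 to 35.8 in adapted/B6. The sum of 9 macrophage and monocyte genes was 2065 to 2660 FPKM, 2758 to 4057 and 1734 to 3286 in the same order. Against original/B6129SF1, 1 of the 8 T cell genes passed higher in adapted/B6129SF1 and 2 in adapted/B6. Of the 9 macrophage and monocyte genes, 1 and 0 passed higher. Over all genes 8.28% and 6.75% passed in either direction. Sums of 9 fibroblast genes (981 to 1258 FPKM in original/B6129SF1, 1090 to 1594 in adapted/B6129SF1 and 1192 to 1453 in adapted/B6) and of 9 endothelial genes (87.1 to 111, 93.7 to 140 and 109 to 131) overlapped between groups. Proliferation genes overlapped too, with sums of 439 to 655 FPKM in original/B6129SF1, 250.5 to 567 in adapted/B6129SF1 and 491 to 540 in adapted/B6. Against original/B6129SF1, 1 of the 9 fibroblast genes passed higher in adapted/B6129SF1 and 2 in adapted/B6. Of the 9 endothelial genes 1 passed higher in each, and of the 9 proliferation genes 0 passed. Log2 differences were above 0 for 6 fibroblast genes in each adapted group. For endothelial genes this held for 8 in adapted/B6129SF1 and 9 in adapted/B6. The part of any of these cell types in the Spry4 and Fosl1 results was not tested. Without both muscle-rich tumors, Spry4 in adapted/B6 against original/B6129SF1 was at -1.49 (adjusted p = 0.0285 by limma).

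Ratios between related genes within one tumor are not affected by a scale factor shared by all genes of that tumor. The pairs were chosen after the levels had been seen, so the 9 ratios are descriptions, given with exact permutation p-values that cannot go below 0.1 for 3 against 3 tumors or 0.0238 for 6 against 3. The ratio of Fosl1 to Etv4 was 2.19, 1.57 and 1.69 in original/B6129SF1, 0.721, 1.08 and 0.968 in adapted/B6129SF1, and 0.831, 0.606 and 0.811 in adapted/B6. All 6 adapted tumors were below all 3 original ones. The means were 1.82 ± 0.330 (SD, n = 3) and 0.836 ± 0.169 (SD, n = 6), a log2 difference of -1.13 (exact two-sided permutation p = 0.0238, the smallest possible, 0.107 adjusted over 9 ratios). Fosl1 to Etv5 showed the same order of groups, at 2.91 ± 0.756 in original/B6129SF1 and 1.68 ± 0.188 in the adapted tumors (log2 difference -0.77, exact permutation p = 0.0238, adjusted 0.107).

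Spry4 was set against its relatives in the same way. Its ratio to Spry2 was 1.3, 0.848 and 1.29 in original/B6129SF1, 1.12, 1.07 and 1.34 in adapted/B6129SF1, and 0.795, 0.62 and 0.457 in adapted/B6. Its ratio to Spred1 was 0.315, 0.296 and 0.423 in original/B6129SF1, 0.304, 0.216 and 0.338 in adapted/B6129SF1, and 0.191, 0.154 and 0.11 in adapted/B6. For both ratios the adapted/B6 tumors were below all other tumors, with exact permutation p = 0.1 against each group of 3. The ratio of Dusp4 to Dusp5 averaged 1.61 ± 0.983 in original/B6129SF1 (SD, n = 3) and 3.81 ± 1.21 in the adapted tumors (SD, n = 6), with overlap (exact permutation p = 0.0476, adjusted 0.107). None of the 9 ratios reached an adjusted p under 0.05 for 6 against 3 tumors, and for 3 against 3 none could.

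**Figure D3:**
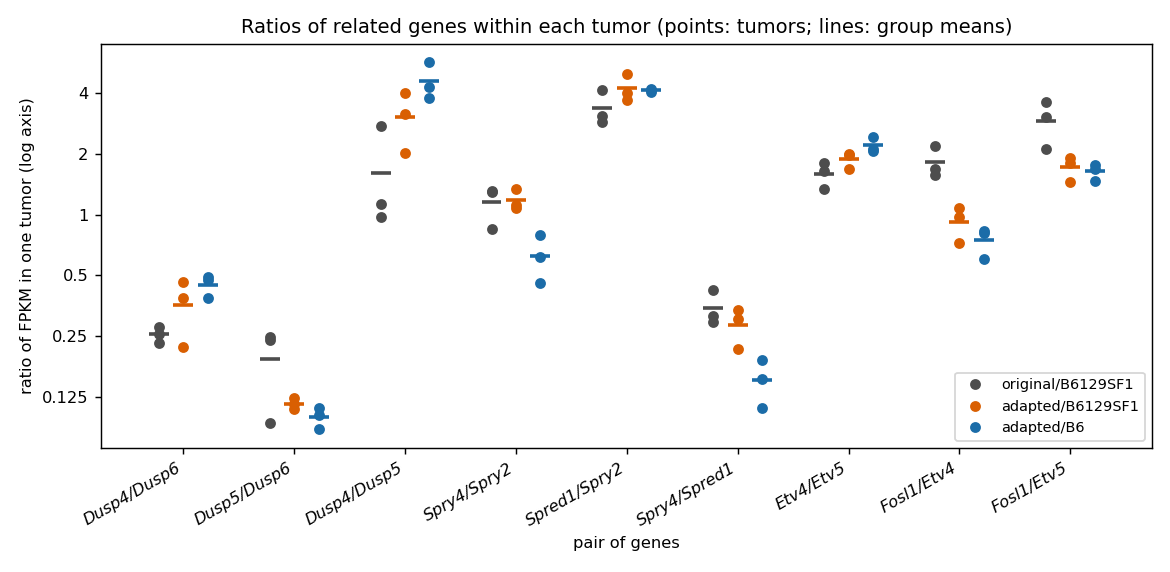
Ratio of FPKM of related genes within each tumor on a log axis, with points for tumors and lines for group means (n = 3). Fosl1/Etv4 lies between 1.57 and 2.19 in original/B6129SF1 and between 0.606 and 1.08 in the adapted tumors, and Spry4/Spred1 lies between 0.11 and 0.191 in adapted/B6, below the others.

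Within groups the 10 genes tended to be high or low together from tumor to tumor. In original/B6129SF1, replicate 2 had the lowest value for 9 genes, all but Spry2, and replicate 3 the highest for 8. In adapted/B6129SF1, replicate 1 was highest for 9 genes and replicate 3 lowest for 9, all but Spry4. In adapted/B6 the order was more mixed, with replicate 2 lowest for 7 genes. The mean of the 10 genes, each centred on its own mean, was 0.26, -0.34 and 0.46 on the log2 scale in original/B6129SF1, 0.31, -0.07 and -0.41 in adapted/B6129SF1, and 0.01, -0.16 and -0.06 in adapted/B6. The adapted/B6 tumors were thus the most alike in this respect, and the ranges of the other groups covered theirs.

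Across the 9 tumors the 45 pairs of these genes had a median Pearson r of 0.50, with 40 above 0, and with the group means removed the median was 0.70, with a range of 0.17 to 0.94. Over pairs of all 8139 genes with a mean of at least 5 FPKM the latter median was 0.009, with 50.7% above 0. The closest pairs with group means removed were Dusp4 with Spred1 (r = 0.94), Etv4 with Phlda1 (0.93) and Dusp5 with Dusp6 (0.93), and the least close was Spry2 with Fosl1 (0.17). Spry4 and Etv4 had r = -0.38 over the 9 tumors and 0.64 with group means removed, so their opposite group means turned the sign of a pair that moved together within groups. The values are descriptions over 9 tumors, and the points share library, scaling and cell makeup. With each tumor left out in turn the median stayed between 0.66 and 0.76. The summed FPKM of all genes was highest in 2 of the tumors where these genes were low, original/B6129SF1 replicate 2 (536661) and adapted/B6129SF1 replicate 3 (540514), against 457983 to 504025 in the others. With all tumors scaled to a common upper quartile, replicate 2 was lowest for 9 genes in original/B6129SF1 and replicate 3 for 10 in adapted/B6129SF1.

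**Figure D4:**
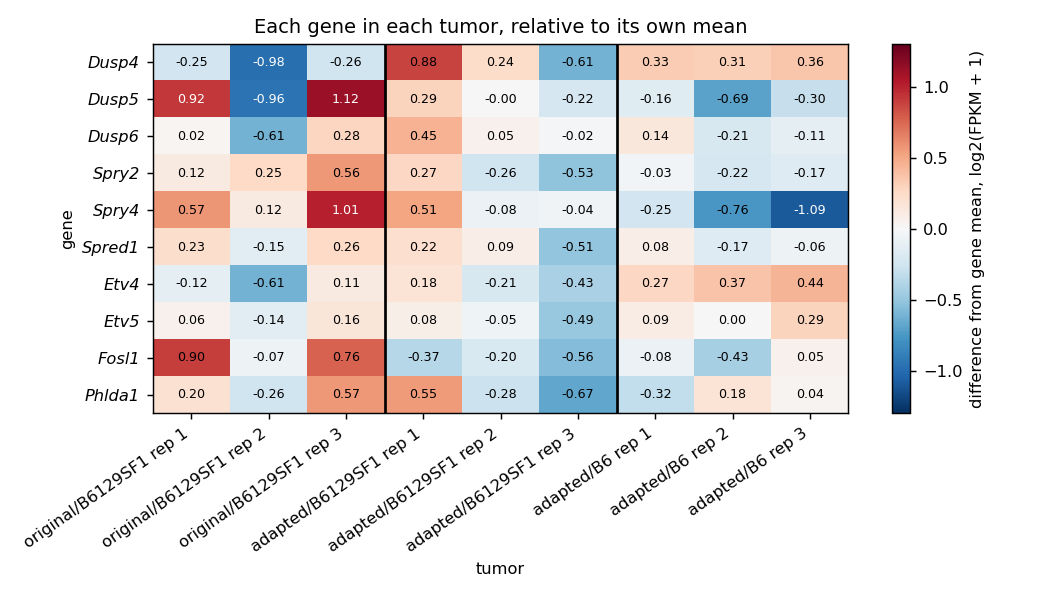
Difference of each gene in each tumor from its own mean over 9 tumors, on log2(FPKM + 1), with red above and blue below the mean. Original/B6129SF1 replicate 2 and adapted/B6129SF1 replicate 3 are low for most genes, and Spry4 reaches -1.09 in adapted/B6 replicate 3.

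Genes outside the group with the most similar pattern over the 9 tumors, among 8129 with a mean of at least 5 FPKM, were Spen (r = 0.973 with the mean of the 10), Pgm1 (0.968), Cyb5d1 (0.958), Smarcad1 (0.956) and Atxn2 (0.956). For Dusp6 they were Taok2 (r = 0.949), Safb2 (0.886), Mafg (0.884), Inppl1 (0.882) and Polg (0.882). These are the highest of 8129 values over 9 tumors, given with no test.

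The rest of the pathway was covered by 73 listed genes, of which 64 were tested. In adapted/B6129SF1 against original/B6129SF1, 3 passed higher and 5 lower by limma, or 12.5% beside 8.28% of all genes. In adapted/B6 against original/B6129SF1 and in adapted/B6 against adapted/B6129SF1, 0 of the 64 passed, beside 6.75% and 0.0292% of all genes. For both adapted groups together 1 passed higher and 7 lower, or 12.5% beside 11.9% of all genes.

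Of 9 other feedback inhibitors tested, 0 passed in any comparison, where from 0.0292% to 11.9% of all genes passed. Among them Spry1, another Sprouty gene, chosen here after its values were seen, averaged 44.0 ± 12.9 FPKM in original/B6129SF1, 38.9 ± 15.4 in adapted/B6129SF1 and 23.0 ± 7.23 in adapted/B6 (SD, n = 3), with a log2 difference of -0.91 in adapted/B6 against original/B6129SF1 (adjusted p = 0.144 by limma).

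Of 19 other delayed targets tested, 4 passed lower in adapted/B6129SF1 against original/B6129SF1 and 0 higher, where 3.92% of all genes passed lower, with a median of -0.52 over the list beside -0.03 over all genes. They were Hbegf, Plaur, Epha2 and Mmp13. Hbegf encodes an EGF receptor ligand, and its mean was 37.5 ± 13.9 FPKM in original/B6129SF1, 16.5 ± 1.004 in adapted/B6129SF1 and 18.9 ± 2.72 in adapted/B6 (SD, n = 3). Plaur, the urokinase receptor gene, fell by 0.71 on the log2 scale in adapted/B6129SF1 (SE 0.16, adjusted p = 0.0321 by limma), from a mean of 77.8 to 46.8 FPKM. The ephrin receptor gene Epha2 fell by 0.68 (SE 0.17, adjusted p = 0.0429 by limma), and the collagenase gene Mmp13 by 1.52 (SE 0.34, adjusted p = 0.0308), the latter from 4.73 to 0.897 FPKM. In adapted/B6 the means were 61.2 FPKM for Plaur, 31.9 for Epha2 and 3.90 for Mmp13. For both adapted groups together, Epha2, Plaur, Hbegf and Areg, a second EGF receptor ligand gene, passed lower, where 5.84% of all genes passed lower. Areg fell by 1.197 (SE 0.33, adjusted p = 0.0481 by limma), from 8.17 ± 4.14 FPKM in original/B6129SF1 to 2.51 ± 1.02 and 2.96 ± 0.725 in the adapted groups. In adapted/B6 against original/B6129SF1, 0 of the 19 passed, with a median of -0.30, where 6.75% of all genes passed in either direction. The direct comparison of the adapted groups likewise gave 0, where 0.0292% of all genes passed, with Mmp13 at 1.36 (adjusted p = 0.536 by limma). Ccnd1, the cyclin D1 gene, was not lower, at 205 ± 43.4, 205 ± 8.72 and 274 ± 29.7 FPKM, and its log2 difference in adapted/B6 was 0.44 (adjusted p = 0.137 by limma).

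Of 18 immediate early genes tested, 2 passed higher in adapted/B6129SF1 against original/B6129SF1, where 4.37% of all genes passed higher. Egr2, a zinc finger factor gene, rose by 1.31 on the log2 scale (SE 0.33, adjusted p = 0.0470 by limma), from 1.40 to 5.06 FPKM. Zfp36, which encodes an RNA-binding protein that promotes decay of cytokine transcripts, rose by 0.72 (SE 0.17, adjusted p = 0.0387 by limma), from 40.4 to 66.8 FPKM. In adapted/B6 the means were 2.86 FPKM for Egr2 and 42.5 for Zfp36, the latter near its original/B6129SF1 mean. The orphan receptor gene Nr4a1 fell by 0.97 in both adapted groups together (SE 0.26, adjusted p = 0.0459). Egr1, the zinc finger gene most often used as an acute readout of ERK, averaged 53.2 ± 34.8 FPKM in original/B6129SF1, 56.6 ± 21.5 in adapted/B6129SF1 and 14.1 ± 5.44 in adapted/B6 (SD, n = 3). Its log2 difference in adapted/B6 was -1.71 against original/B6129SF1 (SE 0.45, adjusted p = 0.0562 by limma) and -1.92 against adapted/B6129SF1 (SE 0.45, adjusted p = 0.490), neither of which passed. The median log2 difference of the 18 genes from original/B6129SF1 was 0.12 in adapted/B6129SF1 and -0.25 in adapted/B6, beside -0.03 over all genes in each. In adapted/B6 against adapted/B6129SF1 it was -0.58, beside 0.01 over all genes, with 2 of the 18 above 0. There 0 of the 18 passed, beside 0.0292% of all genes.

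Of 18 genes of the cascade itself, from Ras to ERK, 1 passed higher and 1 lower in adapted/B6129SF1 against original/B6129SF1. Of all genes 8.28% passed there in either direction. For both adapted groups together 1 passed higher and 2 lower, beside 11.9% of all genes in either direction. In adapted/B6, 0 passed against original/B6129SF1 or adapted/B6129SF1, beside 6.75% and 0.0292% of all genes. Ksr1, which encodes a scaffold of RAF and MEK, rose by 0.997 in adapted/B6129SF1 against original/B6129SF1 (SE 0.23, adjusted p = 0.0321 by limma), from 1.59 to 4.25 FPKM. Sos1, an exchange factor gene for RAS, fell by 0.46 (SE 0.11, adjusted p = 0.0394), from 7.69 to 5.32 FPKM. Both also passed for the adapted groups together. Braf averaged 9.16 ± 0.655, 6.83 ± 1.35 and 7.22 ± 0.463 FPKM, and its log2 difference from original/B6129SF1 was -0.39 in adapted/B6129SF1 and -0.31 in adapted/B6 (adjusted p = 0.111 and 0.206 by limma). Map2k1, the MEK1 gene, averaged 51.4, 46.2 and 53.3 FPKM, and Mapk3, the ERK1 gene, 144, 155 and 161 FPKM, without passing in any comparison. The table does not separate mutant from normal Braf transcripts, nor tumor from host cells. The calls for single genes of the pathway lists were often lost when the processing was changed or a tumor was left out.

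**Figure D5:**
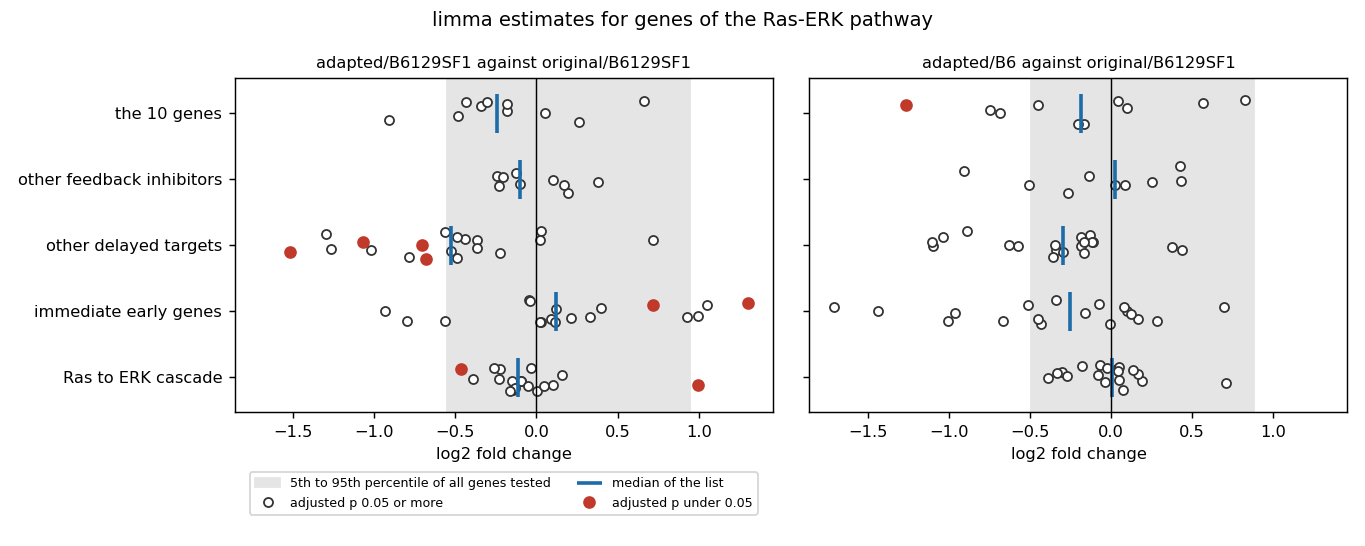
limma log2 fold changes on log2(FPKM + 1) for the 10 genes and 4 lists of other pathway genes, each point a gene, blue lines for list medians and grey for the 5th to 95th percentile of all genes tested. Delayed targets have a median of -0.52 in adapted/B6129SF1 and -0.30 in adapted/B6 against original/B6129SF1, with 4 and 0 genes passing.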

How the data were processed

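RNA from 9 mouse tumors was analysed, 3 per group, with groups and replicate numbers from the sample labels. The labels name the organism as human, whereas the strains, the genome build and the gene symbols are of mouse. According to the methods, the authors sequenced paired-end reads, checked them with FastQC, aligned them to mm10 with HISAT2, made FPKM with Cuffnorm and tested with Cuffdiff. The deposited values are FPKM. The gene annotation and the scaling are not given in the sources used here, and whether multiply mapped fragments were split between paralogs is not stated.

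Linear models with moderated variances were fitted on the log2 scale in limma 3.58.1 (R 4.3.3, eBayes with trend), with Benjamini-Hochberg adjustment over the 10263 genes kept. The pseudocount was 1 FPKM. The procedure was tested on simulated data with independent noise for each gene and with larger changes than those of the 10 genes. That does not show how it performs for correlated genes or for smaller changes. Ratios were compared with exact two-sided permutation tests in scipy 1.17.1. The number of tumors limits the precision. The 10 genes and the gene lists were chosen with earlier results of these data known. Other genes were named where they passed in a listed group (Egr1, Ccnd1, Braf, Map2k1 and Mapk3 always), or had the 5 highest correlations, and 1 gene that the rule names is not reported here. At most 0.0487% of values were identical between a pair of tumors. Alternatives were another pseudocount, other filters, upper quartile scaling, only the groups compared, a replicate block, the DEG threshold, and tumors left out. Listed genes without a row were not analysed here, and no mouse sequence or coordinate was used here.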

Additional observations from a re-analysis of the deposited data

How the results depend on the processing

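Of 270 log2 fold changes of the 10 genes under the alternatives other than leaving out 1 tumor, 257 kept their direction and their side of the threshold. By limma, the Spry4 call in adapted/B6 was lost with no filter (0 of 10 genes passing), and the pooled Fosl1 call with no filter, with upper quartile scaling and with the replicate block (0 each), and without both muscle-rich tumors, where Dusp4 passed instead (0.94, adjusted p = 0.0454), and it did not meet the DEG threshold (0). Over all genes, adapted/B6129SF1 against original/B6129SF1 gave 449 passing with only the groups compared, 444 with the replicate block, 477 without both muscle-rich tumors and 330 DEGs. Adapted/B6 against original/B6129SF1 gave 388 with the block and 317 DEGs, both adapted groups together 793 and 348, and adapted/B6 against adapted/B6129SF1 gave 1 with no filter, 0 with only the groups compared and 0 with the block. The block changed no other call of the 10 genes. Same-numbered tumors were different animals, their deviations correlated at -0.388 to 0.614 over 9 pairs with 3 above 0.1, and in 5 of 18 checks of a tumor against another group the tumor correlated best with its own number, so the numbers were not taken as a pairing.

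With each tumor left out in turn, the number of the 10 genes passing ran from 0 to 2 in adapted/B6129SF1 and 0 to 3 in adapted/B6 against original/B6129SF1, 0 to 3 for both together and 0 to 0 between the adapted groups. The upper ends came without original/B6129SF1 replicate 2. Over all genes the ranges were 211 to 808, 203 to 819, 434 to 1183 and 0 to 6. Without both muscle-rich tumors the sign turned for Spred1 in adapted/B6129SF1 (0.041) and Dusp6 in adapted/B6 (-0.058) against original/B6129SF1, for Etv5 in both together (0.052), and between the adapted groups for Phlda1 (-0.028), Spry2 (-0.20), Spred1 (-0.27) and Dusp4 (-0.23). Leaving out single tumors turned the sign of small differences, with ranges in adapted/B6129SF1 against original/B6129SF1 of -0.15 to 0.22 for Etv4, -0.998 to 0.042 for Dusp5, -0.33 to 0.041 for Spred1 and -0.15 to 0.16 for the log2 ratio of Spry4 to Spry2. The range was -0.21 to 0.23 for Dusp6 in adapted/B6, and -0.10 to 0.34 for Dusp6 and -0.12 to 0.044 for Etv5 in both together. Between the adapted groups it was -0.17 to 0.44 for Phlda1, -0.14 to 0.25 for Spry2, -0.21 to 0.16 for Spred1, -0.23 to 0.52 for Dusp4, -0.11 to 0.11 for Spred1 to Spry2 and -0.19 to 0.016 for Fosl1 to Etv5. Calls of other pathway genes kept their direction throughout, and 42 of 100 values, with 97 of 144 on leaving out a tumor, no longer passed. These alternatives for pathway genes, and those for ratios, were chosen after seeing the data. Except where fewer tumors or other genes entered the test, the cause was not tested.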
